A study of Chlamydomonas reinhardtii with 90 samples.

Results

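The comparison described here is that of *Chlamydomonas reinhardtii* cultures after 2 h of heat at 40°C with cultures of the same experiment before heat. Its members were all genes of the deposited count table, in the 3 libraries labelled heat 2 h at 40°C and the 3 labelled pre-heat of the 40°C experiment, which are 6 of the 90 libraries of the series. Of 17741 genes in the table, 15541 had enough reads to be tested. Chlamydomonas is a single-celled green alga, and the strain was the wild type CC1690 (also called 21gr, mt+). Cultures grew in photobioreactors in Tris-acetate-phosphate medium, so that acetate was supplied beside light, under constant light and at a turbidity kept constant by dilution. All groups used here shared strain, medium and light. The heat groups at 40°C (2 h, with 1 h and 4 h as neighbours in time) had been warmed from 25°C by a ramp, the pre-heat group was kept at 25°C, and a parallel experiment was warmed to 35°C and had its own pre-heat group at 25°C. Each group had 3 libraries, A, B and C, of polyadenylated RNA. The RNA came from whole cultures, so fewer cells in a given stage and less RNA per cell cannot be told apart.

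Heat unfolds proteins. Cells answer by making heat shock proteins, chaperones that hold, refold or dissolve unfolded proteins, and heat shock factors are the transcription factors that switch their genes on. Small heat shock proteins hold unfolded proteins without using ATP. HSP70, HSP90 and HSP100 chaperones work with ATP, with cochaperones such as the J-domain (DNJ) proteins and with chaperonins. An alga given acetate also runs both photosynthesis in the chloroplast and the assimilation of acetate through the glyoxylate cycle and respiration. Expression is given below in TPM (a transcript level scaled to the same total in every library, and corrected for gene length), always as the values of libraries A, B and C. A gene was called when edgeR's Benjamini-Hochberg adjusted p was under 0.05, the fold change was above 2 (a log2 fold change beyond 1) and the group means differed by 1 TPM or more.

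The heat 2 h libraries held 19480617, 22899216 and 27376007 counted reads, and the pre-heat libraries 22538686, 21147893 and 27842140. A single library stood apart. On log2(TPM + 1) values, heat 2 h replicate A correlated with B and C at 0.987 each, while B and C correlated at 0.997 and the pre-heat pairs at 0.996 to 0.998. Replicate A was over 2-fold from the mean of the other 2 heat libraries, in TPM + 1, in 157 genes, against 10 for B and 22 for C, and 3 to 13 for the pre-heat libraries. Without replicate A the counts of called genes were 1406 higher and 1712 lower. Reads were counted only where they fitted a single place in the genome, so the levels of near-identical gene copies are uncertain. This holds for HSP22A with HSP22B, HSP22E with HSP22F, the LHCBM genes, LHCSR3.1 with LHCSR3.2, and CAH4 with CAH5.

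After 2 h at 40°C, 1409 genes were called higher (9.07% of those tested) and 1663 lower (10.7%), 3072 in all (19.8%). The median log2 fold change was 1.56 among the genes called higher, -1.62 among those called lower and 0.05 over all genes tested. Rises reached further than falls. A log2 fold change beyond 5 was seen in 46 genes called higher and in 15 called lower, although beyond 2 the falls were more numerous (567, against 402 rises). In 1403 of the 1409 genes called higher, the 3 heat libraries lay above the 3 pre-heat libraries, an order found in 30.3% of all genes tested. In all 1663 genes called lower they lay below, as in 37.7% of all genes tested. The genes called higher held 5.45%, 5.19% and 5.21% of all TPM in the heat libraries, against 1.64%, 1.55% and 1.68% in the pre-heat libraries. The genes called lower held 4.12%, 3.26% and 3.198% in the heat libraries, against 11.6%, 11.4% and 11.6% in the pre-heat libraries. These genes were chosen by the same libraries, so the shares only describe how much of the total they made up.

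**Figure D1:**
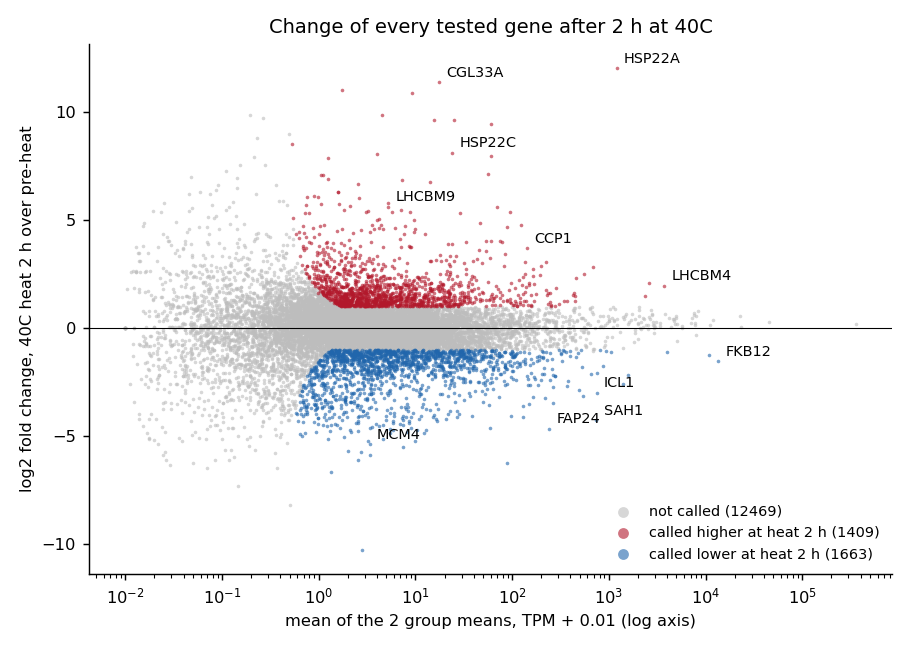
Each point is 1 of the 15541 genes tested; the horizontal axis is the mean of both group means in TPM + 0.01 (log axis) and the vertical axis the log2 fold change of 40C heat 2 h over pre-heat. The 1409 genes called higher are red, the 1663 called lower blue and the rest grey, and HSP22A lies farthest up at a log2 fold change of 12.02.

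The small heat shock proteins rose furthest. Of the 9 tested, 7 were called higher and none lower, with a median log2 fold change of 7.26 (6.53 without heat 2 h replicate A). HSP22A had 1749, 2504 and 2954 TPM at heat 2 h, against 1.01, 0.485 and 0.410 TPM at pre-heat. The groups did not overlap in HSP22A (log2 fold change 12.02 ± 0.94 (SE), adjusted p = 2.56e-17). HSP22B had 77.1, 33.4 and 40.8 TPM at heat 2 h and 0.118, 0 and 0.0717 TPM at pre-heat, with replicate A the highest of the heat libraries (9.64 ± 1.12, adjusted p = 3.68e-11). HSP22C was even across replicates, with 51.0, 47.1 and 44.6 TPM at heat 2 h and 0.186, 0.264 and 0.117 TPM at pre-heat (8.11 ± 0.73, adjusted p = 4.48e-15). HSP22E and HSP22F, which act in the chloroplast, were already detectable before heat and rose less. HSP22E had 81.2, 51.6 and 34.9 TPM at heat 2 h and 7.35, 8.27 and 6.82 TPM at pre-heat (3.02 ± 0.52, adjusted p = 1.05e-06), and HSP22F had a log2 fold change of 2.28 ± 0.54. HSP22D rose too (3.39 ± 0.66), with replicate A at 9.17 TPM above B and C at 3.02 and 2.17 TPM. HSP22H had 1 read in the 3 pre-heat libraries and 305 at heat 2 h. HSP22G had no read before heat and stayed at 0.368 TPM or less, too low to be called. HSP33, counted in this list although it is no HSP22 protein, did not pass the test (0.08 ± 0.16, adjusted p = 0.674).

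Of 16 larger ATP-dependent chaperones tested, 4 were called higher and 1 lower, with a median log2 fold change of 0.44. The HSP90 chaperones of cytosol, endoplasmic reticulum and chloroplast all rose. HSP90A, the cytosolic form, had 435.9, 737.1 and 732.5 TPM at heat 2 h and 273.2, 212.5 and 256.8 TPM at pre-heat (1.48 ± 0.43, adjusted p = 0.00218). HSP90B of the endoplasmic reticulum had 86.8, 206.3 and 186.9 TPM at heat 2 h and 78.7, 75.8 and 88.8 TPM at pre-heat, so that replicate A lay among the pre-heat values (1.10 ± 0.36, adjusted p = 0.00664). Its call was lost in 2 of the 6 fits that each left out 1 library. HSP90C of the chloroplast had a log2 fold change of 1.30 ± 0.43, and CLPB3, the chloroplast disaggregase, had 24.4, 22.9 and 20.4 TPM at heat 2 h and 9.48, 9.87 and 10.1 TPM at pre-heat (1.32 ± 0.29, adjusted p = 6.19e-05). The abundant HSP70 chaperones of cytosol, chloroplast and endoplasmic reticulum did not pass the test at 2 h. Cytosolic HSP70A had 0.52 ± 0.41 (adjusted p = 0.274), chloroplast HSP70B 0.58 ± 0.27 (adjusted p = 0.0566) and BIP1 of the endoplasmic reticulum 0.36 ± 0.36 (adjusted p = 0.401). In HSP70A, HSP70B and BIP1 replicate A was again the lowest heat library. HSP70D was the only one of the 16 called lower, at 0.880, 0.930 and 0.984 TPM at heat 2 h and 2.26, 2.44 and 2.00 TPM at pre-heat.

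Next to these chaperones work their helpers. Of 34 chaperonins and cochaperones tested, 18 were called higher and none lower (median 1.19), also without replicate A. The J-domain proteins led. DNJ31 had 8.17, 5.26 and 4.73 TPM at heat 2 h and 0.221, 0.0324 and 0.209 TPM at pre-heat (5.38 ± 0.64, adjusted p = 7.42e-11), and DNJ7 had 11.8, 6.05 and 6.44 TPM at heat 2 h and 0.265, 0.301 and 0.236 TPM at pre-heat (5.05 ± 0.59, adjusted p = 4.12e-11). The groups did not overlap in either gene. CGE1, the nucleotide exchange factor of chloroplast HSP70, had 200.7, 194.5 and 197.4 TPM at heat 2 h and 51.0, 59.7 and 54.0 TPM at pre-heat (1.97 ± 0.19, adjusted p = 6.28e-14). The chloroplast cochaperonins CPN23 and CPN20 rose by log2 fold changes of 1.84 ± 0.25 and 1.76 ± 0.24. CPN60C, a subunit of the mitochondrial chaperonin, did not pass the test (0.53 ± 0.36, adjusted p = 0.208).

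FKBP immunophilins, which catalyse the turning of proline bonds during folding, were split. Of 14 tested, 8 were called higher and 1 lower (median 1.11). FKB62 led with 87.8, 121.7 and 127 TPM at heat 2 h and 8.00, 7.13 and 7.68 TPM at pre-heat (4.01 ± 0.52, adjusted p = 9.32e-10). FKB12, by far the most abundant of them, went the other way, with 7942, 5348 and 6324 TPM at heat 2 h and 21069, 18957 and 21454 TPM at pre-heat (-1.53 ± 0.16, adjusted p = 1.93e-12). The sum over the family therefore was lower in the heat libraries, although most members were higher. Of the 3 heat shock factor genes, HSF2 was called higher, with 13.2, 9.18 and 8.49 TPM at heat 2 h and 3.59, 3.64 and 3.65 TPM at pre-heat (1.62 ± 0.30, adjusted p = 3.87e-06), and HSF1 (0.60 ± 0.21, adjusted p = 0.0122) and HSFL (0.56 ± 0.17) changed less than 2-fold.

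**Figure D2:**
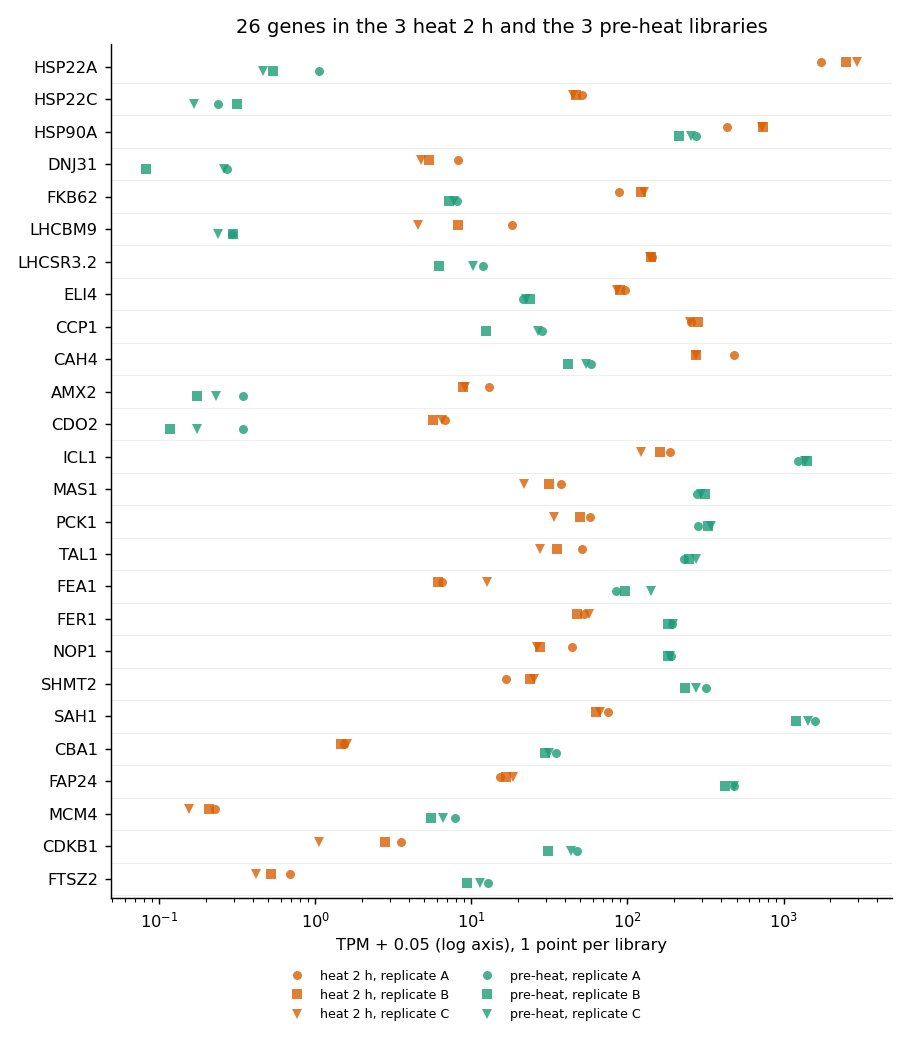
TPM + 0.05 (log axis) of 26 genes described in the text, 1 point per library, with the heat 2 h libraries in orange above the pre-heat libraries in green and the marker shape giving the replicate letter. The groups overlap in none of these picked genes, which the naming rule required of the largest rises and falls. Over all genes tested, the heat libraries all lay above in 30.3% and all below in 37.7%. Replicate A (circles) lies away from B and C at heat 2 h in HSP90A, LHCBM9 and CAH4.

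Few of the listed genes of the photosynthetic apparatus were called. The lists were read in polyadenylated RNA and say nothing about subunits encoded in the chloroplast. None of the 10 photosystem I subunits, 5 photosystem II subunits, 9 antenna proteins of photosystem I or 7 genes of the cytochrome b6f complex and the chloroplast ATP synthase was called in either direction. Their medians were nonetheless above zero, at 0.47, 0.57, 0.41 and 0.69. The most changed of them was ATPG, a subunit of the chloroplast ATP synthase, with 2908, 2481 and 2483 TPM at heat 2 h and 1355, 1544 and 1397 TPM at pre-heat (0.99 ± 0.13), just under the 2-fold limit. Of the 11 genes of the main light-harvesting antenna, LHCII, 3 were called higher. LHCBM9, an antenna protein known to be induced by nutrient stress, had 18.1, 8.17 and 4.49 TPM at heat 2 h and 0.244, 0.248 and 0.189 TPM at pre-heat, the heat libraries spreading widely with A highest (5.62 ± 0.65, adjusted p = 3.79e-11). LHCBM4 had 6225, 5771 and 5510 TPM at heat 2 h and 1693, 1406 and 1812 TPM at pre-heat (1.96 ± 0.27, adjusted p = 3.47e-09), the largest gain in mean TPM of all called genes. LHCBM1, the most abundant antenna transcript, had 332783, 391020 and 383501 TPM at heat 2 h and 352917, 336992 and 352741 TPM at pre-heat, and its groups overlapped (0.21 ± 0.15, adjusted p = 0.24).

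Photoprotection genes formed one of the highest medians of all lists, 2.00, with 4 of 10 called higher and 1 lower. That median counts both near-identical LHCSR3 copies, and also PSBS1 and PSBS2, which had few pre-heat reads and were not called. LHCSR3.2 and LHCSR3.1 encode the antenna-like protein that turns excess light into heat in this alga. LHCSR3.2 had 144.1, 142 and 138.7 TPM at heat 2 h and 11.8, 6.12 and 10.2 TPM at pre-heat, with the heat libraries close to one another (4.04 ± 0.72, adjusted p = 1.96e-06). Its neighbour copy LHCSR3.1 had a log2 fold change of 3.97 ± 0.59. The related LHCSR1 went down, with 5.43, 3.24 and 3.34 TPM at heat 2 h and 16.9, 9.12 and 12.2 TPM at pre-heat (-1.55 ± 0.55, adjusted p = 0.013), but its call was kept in only 3 of the 6 fits that left out a library. The early light-inducible proteins ELI4 (2.13 ± 0.23) and ELI5 (1.88 ± 0.26) rose. ELI4 had 97.0, 89.4 and 85.5 TPM at heat 2 h and 21.4, 23.7 and 22.5 TPM at pre-heat. PSBS1 and PSBS2, also known for energy dissipation, had 122 and 156 reads at heat 2 h against 1 and 3 reads at pre-heat, differed by less than 1 TPM in mean, and were not called. PTOX1, the plastid terminal oxidase that drains electrons from the plastoquinone pool, had 42.6, 34.8 and 32.0 TPM at heat 2 h and 10.8, 9.73 and 11.0 TPM at pre-heat (1.92 ± 0.27, adjusted p = 1.48e-08).

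The carbon concentrating mechanism pumps bicarbonate inward and releases CO2 next to Rubisco. Of its 20 tested genes, 9 were called higher and none lower (median 0.92), also without replicate A. CCP1, a carrier protein induced by low CO2, had 254.1, 284.9 and 252.8 TPM at heat 2 h and 28.5, 12.3 and 26.5 TPM at pre-heat (3.68 ± 0.68, adjusted p = 4.43e-06). The mitochondrial carbonic anhydrase CAH4 had 482.4, 276.6 and 274.1 TPM at heat 2 h and 58.1, 41.4 and 54.2 TPM at pre-heat (2.87 ± 0.54, adjusted p = 7.12e-06), and its copy CAH5 had a log2 fold change of 3.04 ± 0.60. In both, heat replicate A was the highest. The bicarbonate channel LCIA of the chloroplast envelope had 242.5, 310.4 and 271.2 TPM at heat 2 h and 73.2, 30.03 and 68.2 TPM at pre-heat (2.39 ± 0.77, adjusted p = 0.00628). HLA3, a bicarbonate transporter of the plasma membrane, had 19.0, 25.1 and 16.5 TPM at heat 2 h and 10.6, 3.37 and 8.36 TPM at pre-heat (1.57 ± 0.61, adjusted p = 0.0223), and was kept in 4 of the 6 fits. In CCP1, LCIA and HLA3 pre-heat replicate B was the lowest pre-heat library. The most abundant member, the periplasmic carbonic anhydrase CAH1, did not pass the test (0.57 ± 0.77, adjusted p = 0.538).

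Photorespiration recovers carbon from the product Rubisco makes with oxygen. Of 11 genes tested, 5 were called higher and 1 lower, with 4 higher without replicate A. Its first enzyme, the phosphoglycolate phosphatase PGP1, had 122.2, 138.9 and 137.4 TPM at heat 2 h and 56.6, 56.2 and 59.5 TPM at pre-heat (1.33 ± 0.12, adjusted p = 9.35e-15), and glycolate dehydrogenase GYD1 had a log2 fold change of 1.49 ± 0.14. The gene called lower was SHMT2, a serine hydroxymethyltransferase, with 16.6, 23.7 and 25.2 TPM at heat 2 h and 320.8, 233.1 and 274.6 TPM at pre-heat (-3.53 ± 0.27, adjusted p = 5.09e-18). The list was mixed. In 5 of the 11 genes the heat libraries all lay above the pre-heat libraries, and in 5 all below (30.3% and 37.7% of all genes tested). The Calvin-Benson cycle, which fixes CO2, had 3 of 19 genes called higher and 3 lower (15.8% each, median 0.29), so no common direction. Of all genes tested, 9.07% were called higher and 10.7% lower.

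Acetate assimilation fell. Of 13 genes of the glyoxylate cycle, gluconeogenesis and acetate activation, 8 were called lower and none higher (median -1.92, and 9 lower without replicate A). Summed over the list, the heat libraries held 815.4, 684.5 and 569.3 TPM and the pre-heat libraries 3203, 3517 and 3432 TPM. Isocitrate lyase ICL1 and malate synthase MAS1 are the defining enzymes of the glyoxylate cycle. ICL1 had 188, 161.8 and 121.3 TPM at heat 2 h and 1241, 1410 and 1382 TPM at pre-heat (-2.98 ± 0.54, adjusted p = 2.99e-06). MAS1 had 37.3, 31.5 and 21.8 TPM at heat 2 h and 277.3, 314.5 and 297 TPM at pre-heat (-3.18 ± 0.54, adjusted p = 7.27e-07). PCK1, the phosphoenolpyruvate carboxykinase that opens gluconeogenesis, had 57.7, 49.4 and 33.6 TPM at heat 2 h and 283.1, 329.7 and 343.5 TPM at pre-heat (-2.65 ± 0.48, adjusted p = 3.21e-06). In these genes the groups were several-fold apart, with heat replicate A nearest to the pre-heat level. Acetyl-CoA synthetase ACS3, which activates acetate, fell by 2.37 ± 0.40 on the log2 scale, and ACS2 had 26.2, 32.7 and 26.3 TPM at heat 2 h and 90.7, 91.1 and 80.5 TPM at pre-heat and was called lower, while ACS1 stayed just inside the 2-fold limit (-0.94 ± 0.15). Among the 8 largest losses of mean TPM were also Cre17.g702950 and Cre17.g700750, annotated as membrane proteins of the GPR1/FUN34/YaaH family, which in yeast holds acetate transporters. Cre17.g702950 had 440.4, 379.3 and 306.8 TPM at heat 2 h and 2499, 2287 and 2562 TPM at pre-heat (-2.59 ± 0.45).

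Respiration takes over the products of these pathways. Of 23 tricarboxylic acid cycle genes, 12 were called lower and none higher (median -1.12). The aconitase ACH1 had 91.3, 93.2 and 75.5 TPM at heat 2 h and 318.6, 355.3 and 337.2 TPM at pre-heat (-1.84 ± 0.28, adjusted p = 4.55e-08), and the isocitrate dehydrogenase IDH2 (-1.82 ± 0.22) and the fumarase FUM1 (-1.48 ± 0.33) fell as well. None of 25 genes for mitochondrial NADH dehydrogenases was called (median -0.24). Of 13 genes of the cytochrome c reductase and oxidase 2 were called lower (median -0.75), and of 10 ATP synthase genes 5 (6 without replicate A, median -0.99). ATP1A, the alpha subunit of the mitochondrial ATP synthase, had 88.2, 103.3 and 91.2 TPM at heat 2 h and 276.1, 287.5 and 285.9 TPM at pre-heat (-1.47 ± 0.22, adjusted p = 3.41e-08). The ATP synthase list lay close to the 2-fold limit, and the call of ATP5 was kept in 3 of the 6 fits that left out a library. In the pentose phosphate pathway, 1 of 10 genes was called higher (10%) and 2 lower (20%), against 9.07% and 10.7% of all genes tested. The transaldolase TAL1 fell furthest there, with 51.4, 35.1 and 27.6 TPM at heat 2 h and 231.2, 249.2 and 273.1 TPM at pre-heat (-2.61 ± 0.41, adjusted p = 1.16e-07).

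Transcripts of iron assimilation were lower as well, with 5 of 8 genes called lower and none higher (median -1.69). FEA1, a secreted protein that helps the cell take up iron, had 6.38, 6.06 and 12.5 TPM at heat 2 h and 84.9, 96.9 and 140.8 TPM at pre-heat (-3.57 ± 0.54, adjusted p = 5.29e-08). Its relative FEA2 had 3.21, 10.1 and 14.4 TPM at heat 2 h and 40.1, 54.9 and 73.9 TPM at pre-heat (-2.48 ± 0.48, adjusted p = 1.19e-05), replicate A being the lowest in both groups. The ferroxidase FOX1 (-1.25 ± 0.30) and the iron storage protein ferritin, FER1, followed, FER1 with 52.5, 47.5 and 57.0 TPM at heat 2 h and 192.6, 180.9 and 196.8 TPM at pre-heat (-1.74 ± 0.16, adjusted p = 2.25e-14). The iron permease FTR1, which works with FOX1, stood at -0.99 ± 0.18, just inside the 2-fold limit.

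Genes that build ribosomes and genes of the finished cytosolic ribosome parted. Of 22 ribosome biogenesis genes, 17 were called lower (18 without replicate A) and none higher, with a median of -1.75. NOP1, the fibrillarin that methylates ribosomal RNA, had 44.4, 27.4 and 26.1 TPM at heat 2 h and 191.2, 182.6 and 188.1 TPM at pre-heat (-2.40 ± 0.18, adjusted p = 1.58e-18). Its partners NOP56 (-2.51 ± 0.21) and NOP58 (-2.56 ± 0.22) fell to the same extent. Of 61 cytosolic ribosomal protein genes, 1 was called lower and none higher, with a median of 0.12. RPL14, a protein of the large subunit, had 26944, 19026 and 22019 TPM at heat 2 h and 23323, 27453 and 21012 TPM at pre-heat (0.04 ± 0.19, adjusted p = 0.857). The 33 organellar ribosomal protein genes had 1 called higher and 1 lower (median -0.55, and none lower without replicate A). Most fell by less than 2-fold, since in 31 of them the heat libraries all lay below the pre-heat libraries (37.7% of all genes tested). Their sums were 7744, 7612 and 8005 TPM at heat 2 h and 11314, 12493 and 10895 TPM at pre-heat. Of 13 aminoacyl-tRNA synthetases, which charge tRNAs for translation, 6 were called lower and 1 higher (4 lower and 2 higher without replicate A), and of 7 proteasome genes 3 were lower, the furthest being EIF3F (-2.02 ± 0.25), a translation initiation factor subunit rather than a proteasome part.

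The largest group to fall was that of the cell division cycle. Of the 122 tested genes of a list the study drew up on these samples, 68 were called lower and 10 higher (67 lower without replicate A; median -1.92). The list is therefore not independent evidence of the direction. Replication licensing, in which the MCM helicase is loaded on DNA, had 13 of 16 genes called lower and a median of -3.13. MCM4 had 0.176, 0.158 and 0.106 TPM at heat 2 h and 7.76, 5.48 and 6.55 TPM at pre-heat (-5.38 ± 0.42, adjusted p = 1.57e-17), the largest fall among named genes that reached a mean of 5 TPM in a group. MCM6 (-4.71 ± 0.36), MCM2 (-4.47 ± 0.46), MCM3 (-4.43 ± 0.42) and MCM7 (-4.16 ± 0.34) lay close to it. MCM5 fell less, with 0.811, 1.34 and 1.18 TPM at heat 2 h and 11.2, 8.63 and 9.70 TPM at pre-heat (-3.02 ± 0.34). CDC45, which activates the helicase, had a log2 fold change of -4.46 ± 0.44. CDC6, CDT1 and MCM10 lay between -2.51 and -3.80 but differed by less than the 1 TPM in mean that a call required.

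At the replication fork 13 of 20 genes were called lower and 1 higher (12 lower without replicate A; median -1.58). Both subunits of ribonucleotide reductase, which makes the building blocks of DNA, fell together. RIR1 had 2.57, 3.88 and 3.17 TPM at heat 2 h and 56.4, 41.4 and 53.6 TPM at pre-heat (-3.85 ± 0.32, adjusted p = 2.85e-16), and RIR2 had a log2 fold change of -3.99 ± 0.39. DNA ligase DNL1 (0.15 ± 0.24, adjusted p = 0.598) and the polymerase subunit POLD2 (-0.13 ± 0.22, adjusted p = 0.624) stood out from this, with overlapping groups. Of 37 genes of mitosis and chromosome structure, 15 were called lower and 4 higher (median -0.59). The mitotic kinase CDKB1 had 3.49, 2.75 and 1.00 TPM at heat 2 h and 47.5, 31.03 and 43.7 TPM at pre-heat (-3.98 ± 0.52, adjusted p = 1.56e-09). The mitotic cyclin CYCB1 had 5.93, 16.5 and 8.09 TPM at heat 2 h and 200.3, 152 and 205.7 TPM at pre-heat (-4.07 ± 0.79, adjusted p = 9.72e-06). The D-type cyclins differed, CYCD1 falling (-3.45 ± 0.53) and CYCD2 at -0.26 ± 0.19 (adjusted p = 0.258).

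All 7 genes of plastid division were called lower, with a median of -4.06. The chloroplast divides by a ring of the bacterial-type proteins FTSZ1 and FTSZ2, placed by the Min system. FTSZ2 had 0.635, 0.471 and 0.369 TPM at heat 2 h and 12.7, 9.30 and 11.4 TPM at pre-heat (-4.39 ± 0.42, adjusted p = 3.96e-14), and FTSZ1 had -4.06 ± 0.44. MINE1, a placement protein, had 6.57, 3.36 and 2.44 TPM at heat 2 h and 51.3, 37.8 and 50.7 TPM at pre-heat (-3.40 ± 0.37, adjusted p = 3.51e-12). Across these division genes pre-heat replicate B tended to be the lowest pre-heat library. The heat libraries all lay below the pre-heat libraries in each of the 7, as they did in 37.7% of all genes tested.

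The list of methionine cycle and cobalamin (vitamin B12) uptake genes held 3 members, all called lower (median -4.25). SAH1, the hydrolase that clears S-adenosylhomocysteine after methylation reactions, had 74.8, 62.4 and 67.0 TPM at heat 2 h and 1595, 1208 and 1438 TPM at pre-heat (-4.25 ± 0.30, adjusted p = 5.96e-19). The cobalamin acquisition protein CBA1 had 1.47, 1.41 and 1.54 TPM at heat 2 h and 34.7, 29.6 and 31.5 TPM at pre-heat (-4.31 ± 0.27, adjusted p = 4.38e-21). CBA2, the third member of this list, fell too (-2.98 ± 0.21). In each, the replicates of a group lay close together and the groups did not overlap.

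Of 33 flagellar genes, 9 were called lower and none higher (11 lower without replicate A), around a median of -0.24. FAP24, a flagellar associated protein, had 15.1, 16.7 and 18.5 TPM at heat 2 h and 484.7, 424 and 480.8 TPM at pre-heat (-4.66 ± 0.26, adjusted p = 1.32e-23). FMG1-B, the main glycoprotein of the flagellar membrane, had 23.6, 59.4 and 36.5 TPM at heat 2 h and 391.4, 445.8 and 612.4 TPM at pre-heat (-3.48 ± 0.51), while FMG1-A spread widely, with 212.1, 655.4 and 413.6 TPM at heat 2 h, and did not pass (-1.04 ± 0.60, adjusted p = 0.129). Of 35 cell wall genes, 9 were called lower (11 without replicate A) and none higher (median -0.69). Summed over the list, replicate C was the lowest of the heat libraries (436, 372.4 and 237.6 TPM), as in the pherophorin PHC22, an extracellular matrix protein, with 16.7, 10.3 and 4.69 TPM at heat 2 h and 64.1, 46.6 and 76.7 TPM at pre-heat (-2.45 ± 0.80, adjusted p = 0.00716).

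Redox genes moved in both directions. Their shares are given beside those of all genes tested, 9.07% higher and 10.7% lower. Of 27 antioxidant enzymes, 3 were called higher (11.1%) and 4 lower (14.8%). The peroxiredoxin PRX5_a had 60.2, 60.2 and 63.7 TPM at heat 2 h and 18.4, 21.5 and 18.2 TPM at pre-heat (1.79 ± 0.26, adjusted p = 1.78e-08), and the sulfiredoxin SRX1_a, which repairs peroxiredoxins, had the same log2 fold change of 1.79 ± 0.25. The catalase CAT1, in contrast, had 15.3, 19.5 and 17.4 TPM at heat 2 h and 66.2, 69.4 and 68.8 TPM at pre-heat (-1.85 ± 0.28, adjusted p = 7.61e-08). Among 27 glutathione transferases and reductases, 4 were called higher (14.8%) and 2 lower (7.41%), or 5 and 3 without replicate A. GST2, a glutathione transferase, had 170.5, 273.9 and 265.1 TPM at heat 2 h and 69.9, 46.4 and 67.5 TPM at pre-heat (2.07 ± 0.22, adjusted p = 1.90e-12), and glutathione reductase GSR1 fell by 2.31 ± 0.22 on the log2 scale. Thioredoxins and related genes had 11 of 68 called higher (16.2%) and 6 lower (8.82%).

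Starch and lipid genes showed a few clear members within mixed lists. Of 45 genes listed under starch synthesis, 8 were called higher (17.8%) and 6 lower (13.3%), against 9.07% and 10.7% of all genes tested. The starch synthase SSS2 had 49.9, 65.0 and 59.0 TPM at heat 2 h and 13.2, 14.8 and 15.0 TPM at pre-heat (2.13 ± 0.20, adjusted p = 1.95e-14), and the branching enzyme SBE1 rose by 1.90 ± 0.23. Of 18 starch degradation genes, 3 were called higher (16.7%) and 2 lower (11.1%), with a median of 0.14. Cre03.g183300, which has no name in the tables used, had 121.5, 94.7 and 100.7 TPM at heat 2 h and 12.6, 12.5 and 10.9 TPM at pre-heat (3.26 ± 0.25, adjusted p = 9.32e-18). The starch phosphorylase PHOB had 18.8, 33.3 and 26.5 TPM at heat 2 h and 68.5, 64.8 and 74.2 TPM at pre-heat (-1.28 ± 0.27). Neither gene's groups overlapped. Of 6 genes for storage lipid synthesis and lipases, 2 were called higher, both diacylglycerol acyltransferases. DGTT1 had 2.28, 1.72 and 2.07 TPM at heat 2 h and 0.157, 0.181 and 0.276 TPM at pre-heat (3.40 ± 0.39, adjusted p = 3.04e-11). FAD6, the chloroplast desaturase of fatty acids, had 850, 753.2 and 648.8 TPM at heat 2 h and 174.1, 150.1 and 163.5 TPM at pre-heat (2.33 ± 0.21, adjusted p = 5.25e-15). Of 25 fatty acid synthesis genes, none was called higher and 4 lower (16%, 5 genes without replicate A, median 0.18), among them the acetyl-CoA synthetases ACS2 and ACS3 named above. None of 17 carotenoid synthesis genes was called. In chlorophyll synthesis 2 of 22 were higher (1 without replicate A) and 2 lower. At 9.09% each, these were close to the shares of all genes tested (9.07% and 10.7%). The lower ones included the cyclase subunit CHL27/CRD1, with 32.7, 29.2 and 25.4 TPM at heat 2 h and 83.6, 97.4 and 95.9 TPM at pre-heat (-1.55 ± 0.22).

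Several of the largest rises belonged to none of these groups. The copper amine oxidase AMX2 had 12.9, 8.84 and 9.10 TPM at heat 2 h and 0.294, 0.125 and 0.180 TPM at pre-heat (5.80 ± 0.54, adjusted p = 2.24e-14). The cysteine dioxygenase CDO2 had 6.77, 5.61 and 6.45 TPM at heat 2 h and 0.293, 0.0678 and 0.124 TPM at pre-heat (5.40 ± 0.80, adjusted p = 3.31e-08). CGL33A, annotated as a conserved methyltransferase of unknown function, had 31.1, 37.8 and 36.8 TPM at heat 2 h and no read in any pre-heat library, which makes it at least 320.5-fold higher when 3 reads over the pre-heat group are taken as the floor. By mean TPM, the low-CO2-inducible membrane protein LCI24 gained most after LHCBM4, with 4774, 3829 and 3798 TPM at heat 2 h and 1013, 1100 and 1095 TPM at pre-heat (2.07 ± 0.19, adjusted p = 4.96e-15). CBLP, a control gene in the study's quantitative PCR and listed as RCK1, had 3522, 2667 and 2638 TPM at heat 2 h and 2503, 2214 and 2394 TPM at pre-heat. For CBLP (RCK1) the groups did not overlap, but the difference was under 2-fold (0.43 ± 0.14, adjusted p = 0.00558).

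**Figure D3:**
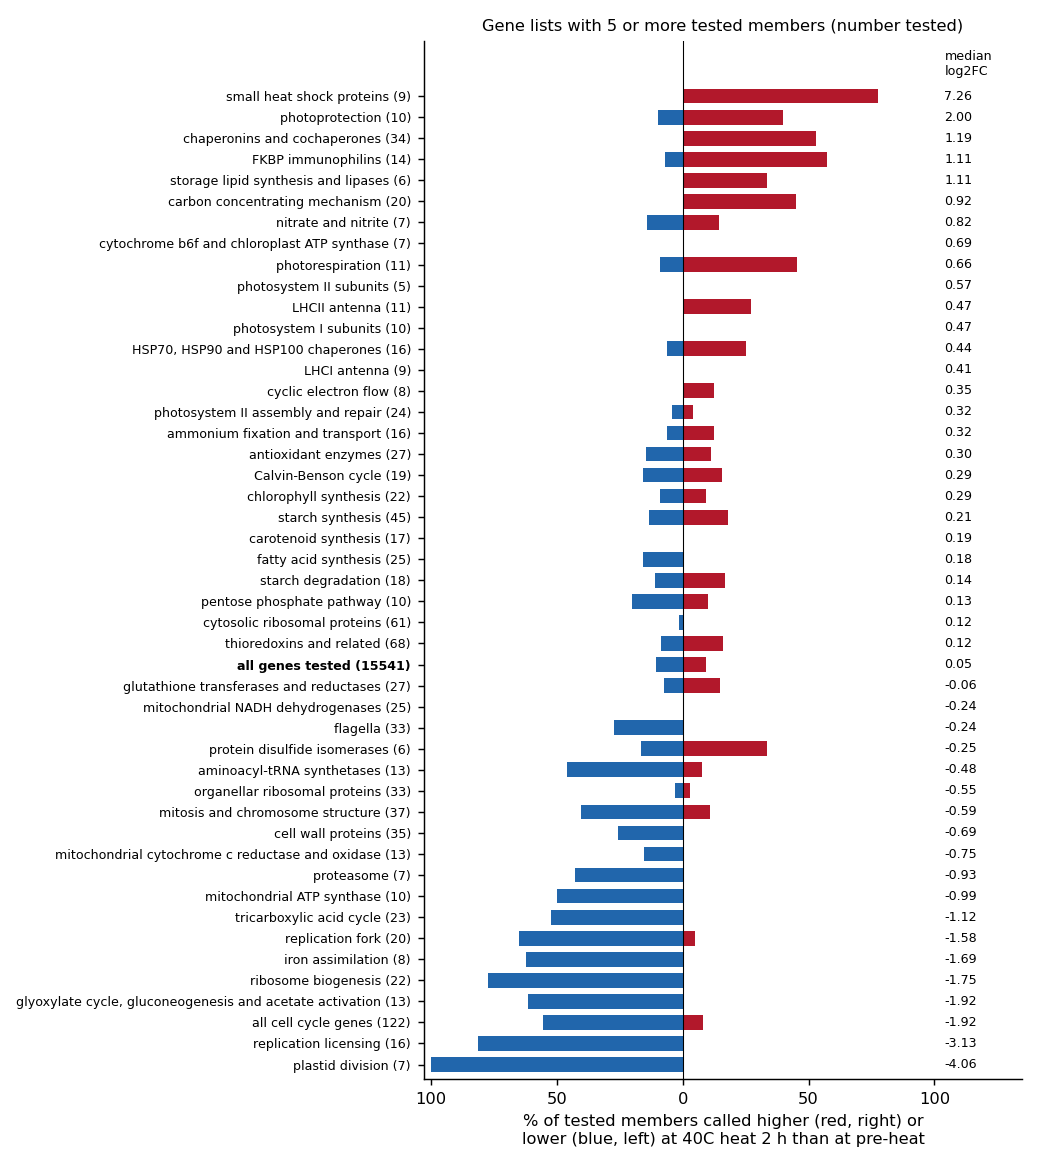
For each gene list with 5 or more tested members, the bars give the percentage of members called higher (red, right) and lower (blue, left) at 40C heat 2 h than at pre-heat, sorted by the median log2 fold change printed at the right. Small heat shock proteins stand at the top with a median of 7.26 and plastid division at the bottom with -4.06; all genes tested, in bold, lie at 0.05 with 9.07% called higher and 10.7% lower.

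The same time point at 35°C asks how these changes differ between the temperatures. At 35°C, 391 genes were called higher (2.52%) and 991 lower (6.38%), or 8.89% in either direction. Of the genes called higher at 40°C, 219 (15.5%) were also called higher at 35°C, and these were 56.0% of the 35°C rises. Of those called lower at 40°C, 634 (38.1%) were also called lower at 35°C, or 64.0% of the 35°C falls. Opposite calls were few, 9 genes higher at 40°C and lower at 35°C, and 39 the other way round. How far the 40°C change exceeded that at 35°C, each taken against its own pre-heat group, was tested directly as an interaction. For this interaction a call required the adjusted p and fold change limits but no difference in mean TPM. Its counts therefore follow a looser rule than those at each temperature. The interaction was called positive in 1614 genes (10.4%) and negative in 1061 (6.83%), which is 17.2% together. Among them were 632 genes called higher at 40°C with a positive difference and 608 called lower with a negative one. The split depends on scaling, since with library size alone the 35°C counts were 224 and 1428 and the interaction counts 2639 and 631, and the median difference over all genes stood at 0.37 in place of 0.11.

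Gene groups differed in how far they were shared. All 7 plastid division genes were called lower at both temperatures, as were 13 of 16 replication licensing genes at 40°C and 14 at 35°C, and the cell cycle list as a whole had 68 called lower at 40°C and 82 at 35°C. The test of the difference was nonetheless positive in 29 of these 122 genes and negative in 7 (38 and 3 with library size alone), and in mitosis and chromosome structure in 11 and 2 of 37. The small heat shock proteins were the opposite case, with 7 of 9 higher at 40°C and 2 at 35°C, and 5 of 9 passed the test of the difference. HSP22A had log2 fold changes of 12.02 at 40°C and 5.46 at 35°C. HSP22C had 8.11 (40°C) and 1.53 (35°C), and its interaction term was 6.58 (adjusted p = 1.53e-04). HSP90A stood at 1.48 at 40°C and -0.09 at 35°C. In the carbon concentrating mechanism 9 genes were called higher at 40°C and none at 35°C, and 6 passed the test of the difference, all positive under each scaling. LHCSR3.2 had log2 fold changes of 4.04 at 40°C and 0.09 at 35°C (difference 3.95, adjusted p = 9.93e-04). LHCBM4 was nearly equal, with 1.96 and 1.94 (difference 0.01, adjusted p = 0.988). SAH1, CBA1 and CBA2 were called lower at both temperatures, with medians of -4.25 (40°C) and -1.71 (35°C). Their difference was called negative in all 3.

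Acetate assimilation and iron genes went apart. In the glyoxylate cycle and gluconeogenesis list, 8 of 13 genes were called lower at 40°C, whereas 5 were called higher at 35°C (1 with library size alone), and 9 had a negative difference under each scaling. MAS1 had log2 fold changes of -3.18 (40°C) and 1.26 (35°C), with an interaction term of -4.43 (adjusted p = 3.34e-06), and the others with opposite calls were PCK1, ACS3 and FBP1. All 8 iron assimilation genes had a negative difference under each scaling, by the rule without a limit on mean TPM. None was called at 35°C, where that limit applied. The reductase FRE1 among them was near zero, with 0.0965, 0.0213 and 0.00878 TPM at heat 2 h and 0.0472, 0.270 and 0.0813 TPM at pre-heat of the 40°C experiment. In the tricarboxylic acid cycle, 16 of 23 genes had a negative difference (13 with library size alone). The cytochrome c reductase and oxidase list (13 of 13) and the mitochondrial ATP synthase list (9 of 10) rested more on the scaling, with 4 and 3 genes left when library size alone was used. Cell wall genes differed in the positive direction, 17 of 35 (21 with library size alone), being called lower in 21 cases at 35°C against 9 at 40°C.

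**Figure D4:**
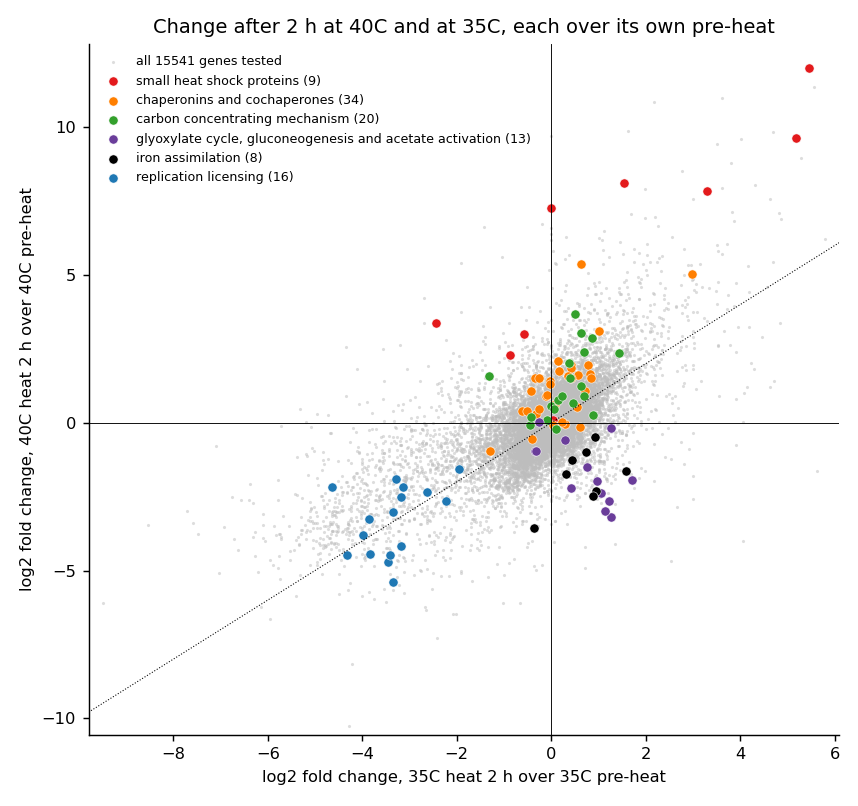
Log2 fold change after 2 h at 40C (vertical) against that at 35C (horizontal), each over its own pre-heat group, for 15541 genes in grey and 6 gene lists in colour; the dotted line marks equal change. Small heat shock proteins lie above the line, replication licensing genes near it, and the glyoxylate and iron genes below zero at 40C and mostly above zero at 35C.

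The neighbouring time points place 2 h on the course of heat. Against 1 h, 380 genes were called higher at 2 h (2.45%) and 519 lower (3.34%), 5.78% together. From 2 h to 4 h, 387 were called higher at 4 h (2.49%) and 522 lower (3.36%), 5.85% together. With library size alone these became 542 and 376, and 484 and 408, with medians over all genes of 0.16 and 0.14 in place of 0.00 and 0.03. Chaperone transcripts were already declining. At 2 h against 1 h, 8 of 9 small heat shock proteins, 11 of 16 HSP70, HSP90 and HSP100 chaperones and 18 of 34 chaperonins and cochaperones (17 with library size alone) were lower, and none was higher. HSP22A averaged 17073 ± 5394 TPM at 1 h, 2402 ± 609 TPM at 2 h and 91.0 ± 33.2 TPM at 4 h (SD, n = 3 each). Its highest mean, 30584 TPM, was at 0.5 h, so that 2 h lies on the falling side. HSP90A averaged 1932 ± 676, 635 ± 173 and 168 ± 44.5 TPM at 1, 2 and 4 h, the last below the pre-heat mean of 247.5 TPM, and HSP70A, 1165 ± 396 TPM at 1 h, was at 339 ± 60.4 TPM at 2 h. For HSP70A this was a fall against 1 h (-1.85 ± 0.42, adjusted p = 4.34e-04).

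Carbon and division genes had other courses. HLA3 was called higher at 2 h than at 1 h (2.40 ± 0.62, adjusted p = 0.00209), averaging 20.2 ± 4.43 TPM at 2 h against 3.94 ± 2.51 TPM at 1 h and reaching 38.2 ± 9.65 TPM at 4 h. CCP1 stayed level, at 262 ± 83.3 TPM at 1 h, 264 ± 18.1 TPM at 2 h and 218 ± 37.6 TPM at 4 h. ICL1 averaged 103 ± 24.3 TPM at 1 h, 157 ± 33.6 TPM at 2 h and 408 ± 78.01 TPM at 4 h, and 6 of 13 genes of its list were called higher at 4 h than at 2 h. Of the 16 replication licensing genes none was called at 2 h against 1 h, and 6 were called higher at 4 h than at 2 h. MCM5 averaged 1.11 ± 0.273 TPM at 2 h and 0.534 ± 0.144 TPM at 1 h, a difference past the p and fold limits but under 1 TPM (1.02, adjusted p = 0.0237). MCM4 averaged 0.191 ± 0.0601 TPM at 1 h, 0.147 ± 0.0365 TPM at 2 h and 1.64 ± 0.116 TPM at 4 h (4 h against 2 h: 3.49 ± 0.41, adjusted p = 4.66e-10). Of 35 cell wall genes, 15 were called lower at 4 h than at 2 h (13 with library size alone), and of 33 organellar ribosomal protein genes 24 (22 with library size alone). The comparisons of 2 h with pre-heat, with 1 h and with 4 h share the heat 2 h libraries, so their values stand side by side and were not correlated.

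**Figure D5:**
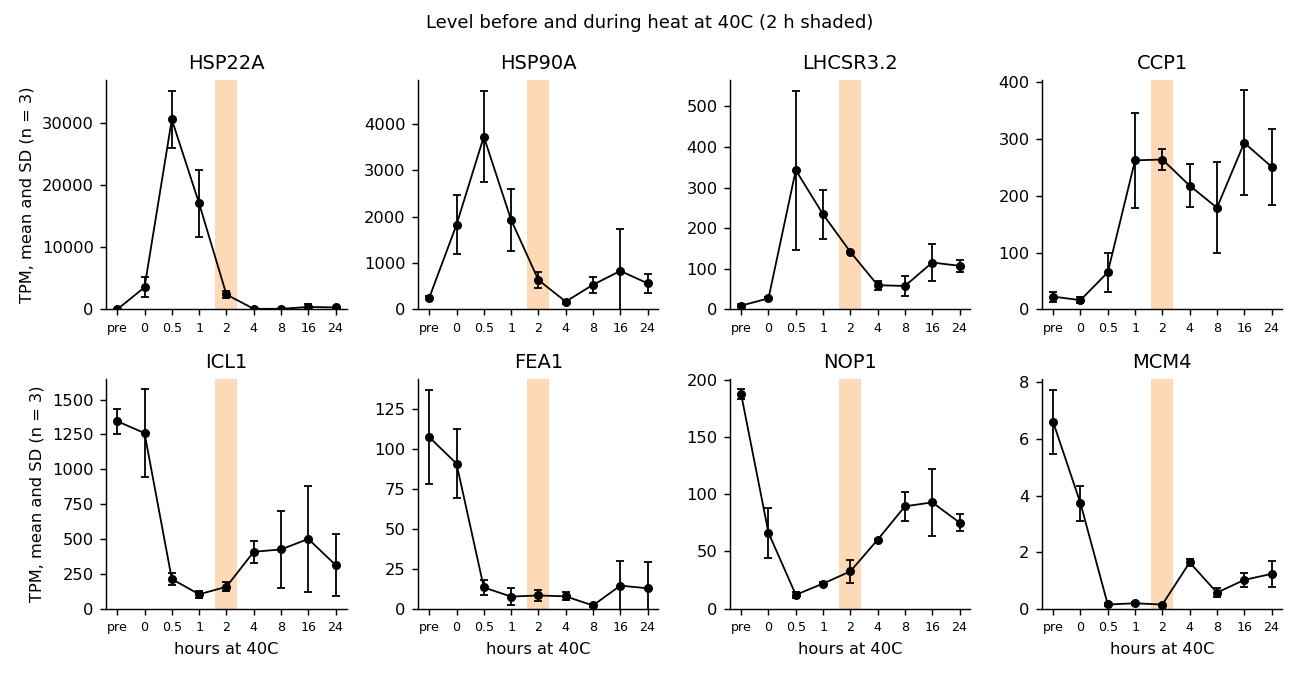
Mean TPM ± SD (3 libraries each; linear axis from 0) of 8 genes from pre-heat to 24 h at 40C, with 2 h shaded. HSP22A and HSP90A are past their highest means at 2 h, CCP1 has reached its plateau, MCM4 is at its lowest mean and ICL1 and NOP1 are above theirs but well below pre-heat.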

How the data were processed

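Libraries were made from polyadenylated RNA of *Chlamydomonas* cultures. Per the labels and the study's methods, the authors filtered the paired reads, aligned them with STAR to the genome of version 5.6 (at most 1 locus and 1 mismatch per read), and counted them with HTSeq, with FastQC for quality. The sources used here give no tool versions. Raw reads per gene, not normalized, make up the deposited count table, and the deposited TPM table the authors' length- and depth-scaled values.

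Counts were tested with edgeR 4.0.16 (R 4.3.3; quasi-likelihood F-test, TMM scaling, 1 mean for each of 30 groups over 90 libraries, Benjamini-Hochberg adjustment). A gene was kept if at least 9 libraries held 10 or more of its reads. The study's mixed-effect model was replaced by this test of the raw counts. DESeq2 1.42.0, limma 3.58.1 on log2(TPM + 1) or log2(TPM + 0.1), other scalings, filters and sets of libraries, a replicate block and leaving out each library were alternatives. The labels give replicates by letter, and the study calls them biological. SE was worked out from the test, as the absolute log2 fold change divided by the square root of its F statistic. It includes the spread between libraries as estimated in the fit over 90 libraries, while the floors cover counting error only.

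Named were the 12 largest rises and falls among called named genes with non-overlapping groups and a mean of 5 TPM or more in a group, the 4 largest of unnamed genes, all members of lists of 12 genes or fewer, in longer lists up to 8 called members and 4 abundant members not called, CBLP, CGL33A and LHCSR1, up to 6 genes in each direction of other comparisons, and the 8 largest gains and losses of mean TPM. The comparison, the 50 gene lists and the names, from the study's tables, were chosen with earlier results of these data known. Of 17741 gene IDs, 17738 matched a RefSeq locus tag and 1976 had a name in the study's tables.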

Additional observations from a re-analysis of the deposited data

Results flagged for a closer look

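The change after 2 h at 40°C and the change after 2 h at 35°C were compared by an interaction term in edgeR, and results were singled out where the adjusted p was under 0.05 and the log2 difference beyond 1. Over all genes this held for 1614 with a positive and 1061 with a negative difference, and among the 450 genes named by rule for 76 and 98. Single genes are given where they had one of the 6 largest such differences in a direction among called named genes, or opposite calls at the 2 temperatures.

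Differences (change at 40°C minus change at 35°C, log2 scale) were positive for the small heat shock proteins HSP22A (6.55), HSP22C (6.58) and HSP22D (5.83), the copper amine oxidase AMX2 (5.76), the cysteine dioxygenase CDO2 (5.32) and the glutathione transferase GST2 (3.18). They were negative for the acetate and gluconeogenesis genes MAS1 (-4.43), ICL1 (-4.11), PCK1 (-3.86), FBP1 (-3.63) and ACS3 (-3.44), the transaldolase TAL1 (-4.31), the chlorophyll cyclase subunit CHL27/CRD1 (-2.67) and TEH6 (-4.21). PSBS1 (8.04), HTR18 (-5.64) and AMX3 (-8.05) rest on few reads, 122 against 1 for PSBS1 and 0 at heat 2 h for the other two, against 12 for HTR18 and 6 for AMX3 at pre-heat, so that their fitted values depend on the prior count and are no bound.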

How the results depend on the processing

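The 40°C counts of 1409 higher and 1663 lower were 1349 and 1740 with DESeq2's Wald test and stayed within 1.5 times under every alternative run except that limma on log2(TPM + 1) gave 782 higher and dropping the TPM criterion gave 2254 higher. With library size alone, the 35°C count of rises was 224, and the difference between temperatures was called positive in 2639 and negative in 631 genes. Leaving out 1 library gave 1391 to 1431 higher and 1621 to 1712 lower at 40°C, 369 to 402 and 467 to 588 for 2 h against 1 h, 354 to 449 and 487 to 559 for 4 h against 2 h, 374 to 432 and 960 to 1064 at 35°C, and 1365 to 1748 and 989 to 1163 for the difference. The alternatives for the 35°C counts, and the list counts without heat 2 h replicate A or with other scalings, were chosen after seeing the data.

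Deviations of same-lettered heat 2 h and pre-heat libraries correlated at 0.0825, 0.000111 and -0.0165. Those of libraries with different letters ran from -0.0688 to 0.0766. With so few libraries per group, these values cannot decide whether the libraries were paired. The paper describes cultures kept at constant turbidity throughout and sampled at several times, so pairing was not excluded. The main test did not treat the letters as pairs. With the letter as a replicate block the counts were 1391 higher and 1689 lower. None of the 450 named genes reversed its direction while called under any alternative. Genes at a few reads, such as HSP22G, limit what depth can show.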

Other observations

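Among genes with no name in the tables used, Cre08.g380100 had 136.9, 96.2 and 131.5 TPM at heat 2 h and 0.244, 0.115 and 0.197 TPM at pre-heat (log2 fold change 9.44 ± 0.51 (SE), edgeR adjusted p = 1.06e-24). Cre13.g585026 had 19.5, 14.9 and 20.3 TPM at heat 2 h and no read at pre-heat, which makes it at least 226.7-fold higher with a floor of 3 reads over the group. In the other direction, Cre09.g404351 had no read at heat 2 h and 5.14, 5.32 and 6.36 TPM at pre-heat, at least 169.8-fold lower on the same floor. Cre17.g708750 had 3.73, 0.946 and 1.69 TPM at heat 2 h and 201.3, 124.3 and 196.5 TPM at pre-heat (-6.24 ± 0.70, adjusted p = 1.39e-11).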
